A study of Mus musculus with 16 samples.

Results

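Glycosaminoglycan synthesis and sulfation genes were examined in the intervertebral discs of mice that lost Sirt6 in aggrecan-expressing cells. The genes were a list of 41 enzymes and transporters of chondroitin, dermatan and heparan sulfate and of hyaluronan, chosen by name and looked up by gene symbol. Of the 41, 38 had a probe set among the 19505 named genes, and 31 of the 38 passed the filter on low signal that left 16665 genes for testing. Chpf2, Ndst1 and Glce were not analysed here, and Dse, Extl1, Extl3, Hs2st1, Hs6st1, Hs6st2 and Slc35d1 did not pass the filter.

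RNA was measured on Mouse Clariom S arrays in male mice aged 24 months, on a mixed strain background. Every animal was homozygous for the floxed Sirt6 allele. The cKO mice also carried Acan CreERT2, a tamoxifen-inducible Cre in aggrecan-expressing cells of the nucleus pulposus (NP), annulus fibrosus (AF), endplate and growth plate, while the fl/fl mice were littermates without Cre, and all mice of both genotypes had received tamoxifen as young adults. Each array held NP or AF pooled from lumbar and caudal discs of 1 animal, with 4 arrays for NP fl/fl, 4 for NP cKO, 4 for AF fl/fl and 4 for AF cKO, and the labels name 4 mice of each genotype for both tissues without tying NP and AF arrays of an animal to each other. In such pooled tissue, fewer cells of a type and less RNA per cell cannot be told apart.

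Glycosaminoglycans are long sugar chains that are built in the Golgi on core proteins such as aggrecan, starting from a short linkage of xylose, galactose and glucuronic acid. Chondroitin or heparan polymerases extend the linkage, and epimerases and sulfotransferases then modify the chain with sulfate from the donor PAPS. Hyaluronan is made at the plasma membrane and carries no sulfate. The fixed charge of sulfated chains on aggrecan holds water in the NP and gives the disc its swelling pressure.

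The promoters of Chst12 and Dsel are shown because the levels of these genes set single arrays and 1 genotype comparison apart in the results that follow. They come from RefSeq on build GRCm38.p6 and cover 250 bases before and 50 bases after the annotated start, 5′ to 3′ on the gene's strand. Capitals mark GC boxes (GGGCGG or its reverse CCGCCC) and CCAAT boxes (CCAAT or its reverse ATTGG) found on either strand, and overlapping matches were each counted.
Chst12 (chr5:140505359-140505658, plus strand): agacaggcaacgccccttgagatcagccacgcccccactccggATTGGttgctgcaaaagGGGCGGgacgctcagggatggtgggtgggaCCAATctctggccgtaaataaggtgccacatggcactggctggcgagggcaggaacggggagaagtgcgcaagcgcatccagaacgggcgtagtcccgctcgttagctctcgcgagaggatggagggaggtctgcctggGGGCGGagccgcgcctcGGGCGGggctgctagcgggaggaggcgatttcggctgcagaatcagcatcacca
Dsel (chr1:111864869-111865168, minus strand): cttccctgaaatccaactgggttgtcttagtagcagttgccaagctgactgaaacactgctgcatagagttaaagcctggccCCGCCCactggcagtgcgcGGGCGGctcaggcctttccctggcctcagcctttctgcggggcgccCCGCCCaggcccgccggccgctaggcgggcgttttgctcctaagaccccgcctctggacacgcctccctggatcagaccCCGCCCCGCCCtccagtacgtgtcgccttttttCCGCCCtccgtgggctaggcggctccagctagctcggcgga
The Chst12 window held 3 GC boxes and 2 CCAAT boxes and the Dsel window held 6 GC boxes and no CCAAT box. Of 32851 promoter windows of this length, 35.7% held a GC box and 37.4% a CCAAT box. Promoter windows of 32 of the 41 genes were used here, of which 25 had a GC box and 15 a CCAAT box in at least 1 window. These are counts of genes, some with more than 1 window, whereas the shares are of single windows. A match describes the letters and was not tested as a binding site.

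Most of these genes, like most named genes on the arrays, read close to background. Each array carried 23 background control probe sets, and a value that exceeded their median by at least 2-fold was called over background. This held for 94 of 608 values of the 38 genes, on 2 to 8 genes per array. Per array, 5.26% to 21.05% of the 38 genes were over background, beside 15.48% to 22.63% of all named probe sets. Fam20b was over background on 16 arrays, Chst12 and Extl2 on 10, B4galt7 on 9 and Xylt1 on 8, and 18 genes on 0 arrays. A value under this limit is a bound and does not show that the transcript was absent. The median SD within a group was 0.38 for NP fl/fl, 0.39 for NP cKO, 0.60 for AF fl/fl and 0.39 for AF cKO (log2 signal, 38 genes, n = 4 arrays each). The most variable genes were Ugdh in NP fl/fl (SD 1.19), Papss2 in AF fl/fl (SD 1.36) and Xylt1 in NP cKO (SD 3.05) and AF cKO (SD 1.11).

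**Figure D1:**
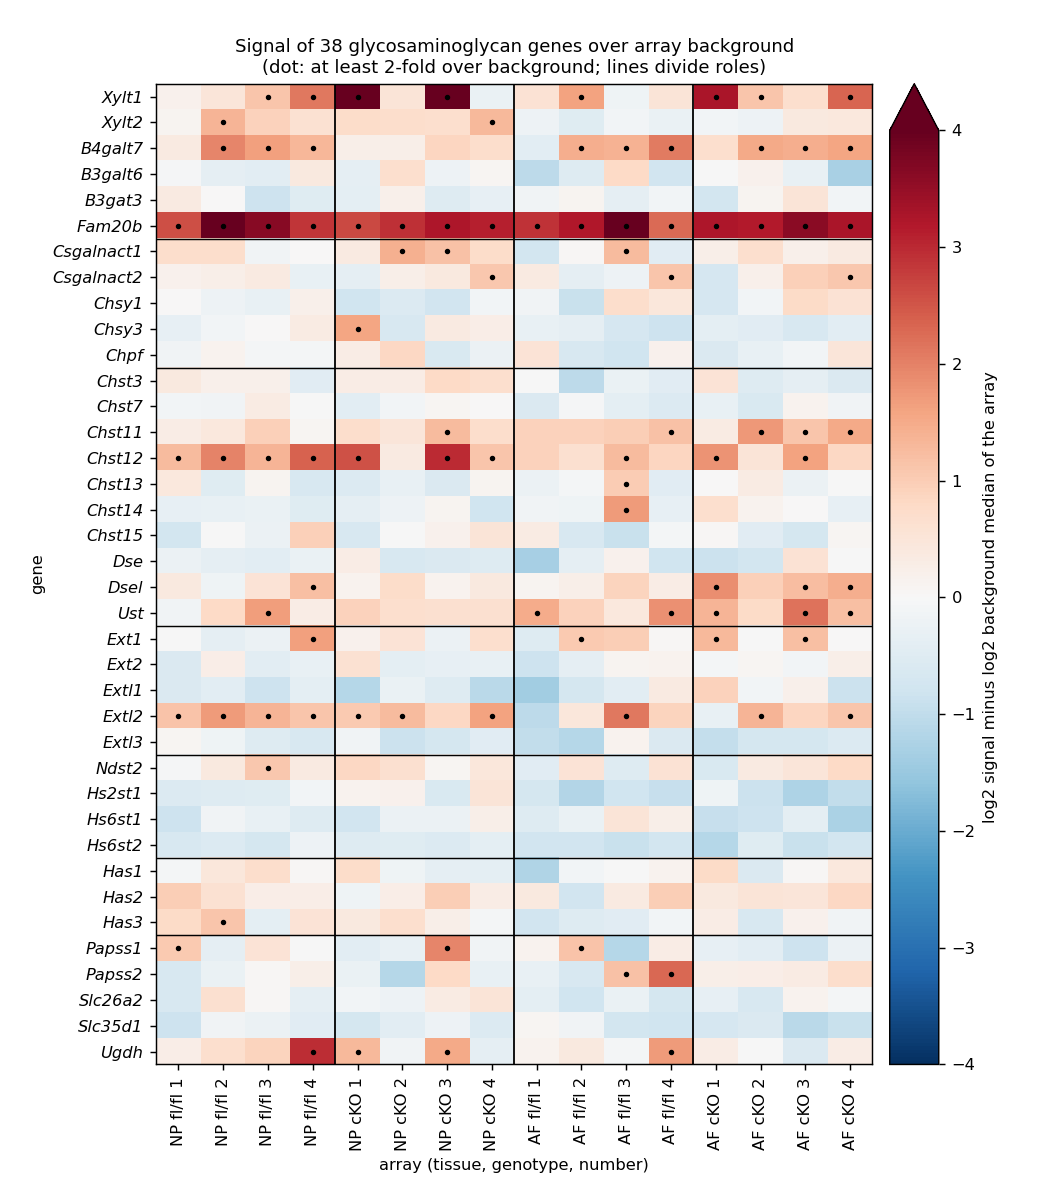
Log2 signal of 38 glycosaminoglycan genes (rows, by role) on 16 arrays (columns), relative to the median of the background controls of the same array; colours saturate at 4. Dots mark the 94 values at least 2-fold over background, and Fam20b is the row with 16 dots.

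The background controls had medians of 4.28 to 4.33 on the NP arrays, below the 4.65 to 4.83 of the AF arrays. Sirt6 itself was over background on 0 of 8 arrays in either tissue and its cKO minus fl/fl difference was -0.03 in NP and -0.50 in AF (two-sided exact permutation p = 0.8286 and p = 0.2, 4 arrays against 4), so its probe set did not check the genotype labels. Of 12 measured NP and notochord markers, 3 (Foxa1, Foxa2 and Car12) were over background on 0 NP fl/fl arrays, and of 11 annulus and tendon markers 4 (Scx, Thbs4, Comp and Lox) on 0 AF fl/fl arrays. NP cKO arrays 1 and 3 stood apart, in markers of the tissue itself and of others. The mean of the 12 NP and notochord markers was 6.59 and 6.53 there, 4.90 on both other NP cKO arrays and 5.37 to 6.02 in fl/fl, and that of 15 cartilage markers was 5.84 and 5.97 against 4.93 to 5.31. Acan read 10.82 and 11.31 there, and between 5.61 and 7.38 elsewhere in NP, and the mean of 20 skeletal muscle markers was 5.73 and 5.75 against 4.48 to 4.93. On AF cKO array 4 the cartilage mean was 8.85, beside 5.64 to 6.13 for the rest of the AF arrays, and the muscle mean was 6.53 beside 4.99 to 5.43. The macrophage and leukocyte mean (5.63 beside 4.72 to 5.30) and the adipose mean (6.39 beside 5.11 to 6.10) were highest on it as well, as were the annulus and tendon mean (6.09 beside 4.94 to 5.79) and the osteoblast mean (5.08 beside 4.47 to 4.90). On AF cKO array 1, 15% of all 16665 genes lay above and 23% below the other 7 AF arrays. For AF cKO array 4 these shares were 11.8% and 8.94%.

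To see whether glycosaminoglycan synthesis transcripts differed after Sirt6 loss, the genotypes were compared within each tissue. In the NP, 17 of the 31 tested genes were higher and 14 lower in cKO, with a median log2 difference of 0.025 against -0.023 for all genes. The thresholds were those of the study's methods, an unadjusted p up to 0.05 together with a log2 difference of 0.807 or more in size. By limma, 0 of the 31 genes passed both in NP, where 2.39% of all genes did. B4galt7 was the 1 gene at an unadjusted p under 0.05 in NP, and Significance Analysis of Microarrays (SAM) also placed 0 genes past the thresholds. In the AF, 25 of the 31 were higher and 6 lower in cKO (80.6% higher, against 50.7% of all genes), with a median of 0.16 against 0.0074. The AF median was 0.29 without fl/fl array 3, 0.26 without cKO array 1, 0.10 without fl/fl array 2 and 0.093 without cKO array 3, and the NP median lay between -0.052 and 0.053 with any 1 array left out. Dsel and Xylt1 passed the thresholds in AF, both higher in cKO, 2 of 31 genes beside 3.54% of all genes. After Benjamini-Hochberg adjustment over the 16665 genes, limma and SAM called 0 genes in either tissue (0% of all genes; 823 in NP and 667 in AF were at an unadjusted limma p under 0.05; lowest limma adjusted p among the 31 = 0.934 in NP and 0.984 in AF).

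**Figure D2:**
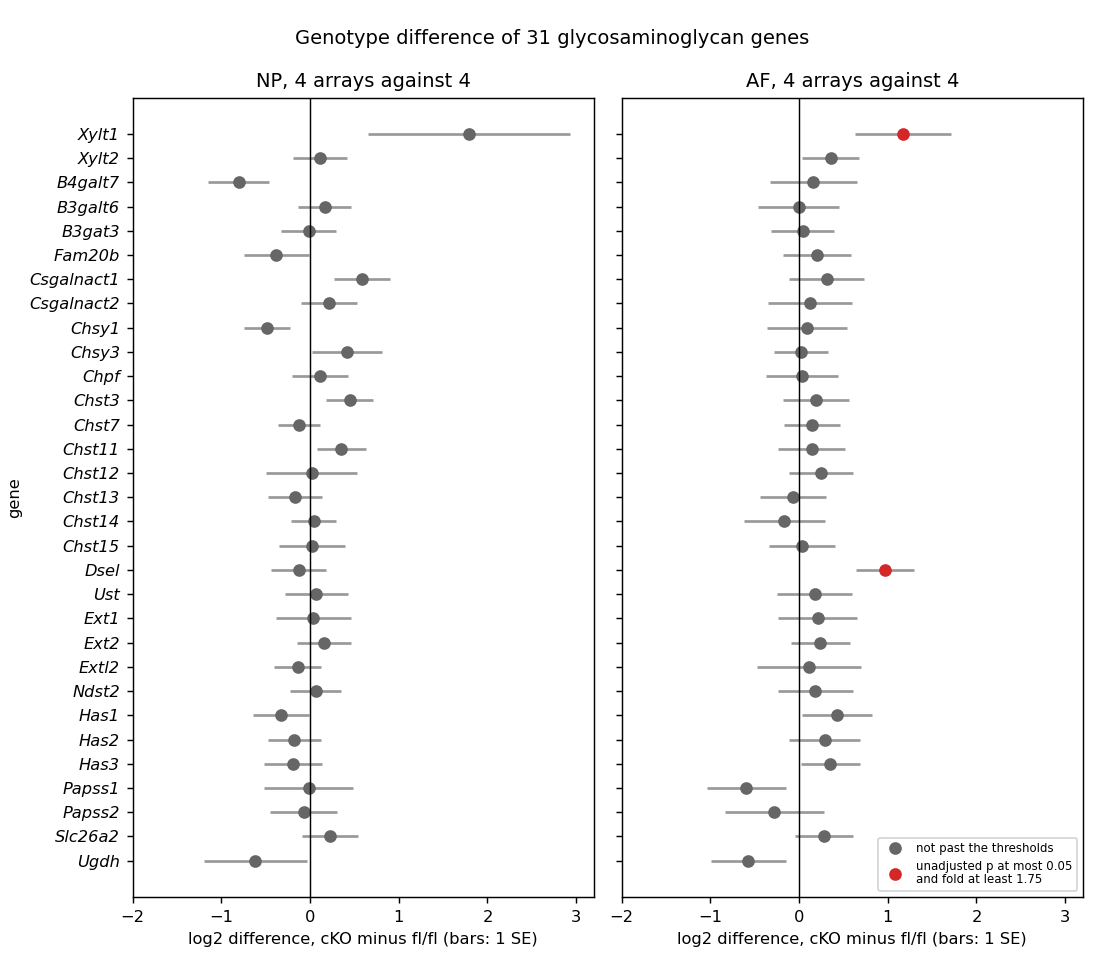
Log2 difference, cKO minus fl/fl, of the 31 tested genes in NP (left) and AF (right); points are limma estimates from 4 arrays against 4 and bars are 1 SE. Xylt1 had the highest estimate in both tissues (1.79 and 1.17) and the points past the thresholds are Xylt1 and Dsel in AF.

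The groups did not overlap for 0 of the 31 genes in NP, beside 2.81% of all genes, and for 1 in AF, Dsel, beside 2.61% of all genes. The number of genes higher in AF cKO was 24 of 31 without cKO arrays 1 and 4 together (median 0.27) and 19 to 24 of 31 with any 1 array left out. With quantile normalization it was 24, and with either centring of the arrays 26.

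Of the 6 genes of the linkage region, 3 were higher and 3 lower in NP cKO, and 5 were higher in AF cKO. Xylt1 encodes a xylosyltransferase, which adds the xylose that starts chondroitin and heparan sulfate chains. It read 4.48, 4.80, 5.40 and 6.39 on NP fl/fl arrays 1 to 4 and 9.19, 4.84, 10.15 and 4.07 on NP cKO arrays 1 to 4. Thus cKO arrays 1 and 3 lay above every fl/fl array, while cKO array 4 lay below them. The NP difference was 1.79 ± 1.14 (log2, SE; limma unadjusted p = 0.143, adjusted p = 0.934), it was 2.53 without cKO array 2 and 2.79 without cKO array 4, both past the thresholds, and 1.09 without cKO array 1, 0.76 without cKO array 3 and -0.81 without both of these. In the AF, Xylt1 read 5.41, 6.33, 4.57 and 5.30 in fl/fl and 7.90, 5.91, 5.44 and 7.05 in cKO. The highest AF levels were on cKO arrays 1 and 4, and the groups overlapped. The part of the tissue markers that were high on AF cKO array 4 was not tested. The AF difference was 1.17 ± 0.54 (limma unadjusted p = 0.0499, adjusted p = 0.984), 0.73 without cKO array 1 and 0.27 without cKO arrays 1 and 4. The AF call was lost when any of fl/fl arrays 1, 3 and 4 or of cKO arrays 1 and 4 was left out (0.73 to 1.18), and in 7 settings that kept all arrays, quantile normalization and a change of filter among them (limma unadjusted p = 0.0502 to 0.249). The interaction of Xylt1 was 0.62 (limma unadjusted p = 0.663).

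Xylt1 was not alone on NP cKO arrays 1 and 3. Xylt1, Chsy3 and Chst12 were above, and Chsy1 and Extl2 below, all other 6 NP arrays on both, 3 and 2 of 31 genes, beside 6.35% of all genes above and 6.37% below. Sox9, a transcription factor of cartilage and notochord cells, read 9.19 and 9.33 on these arrays and 3.63 to 5.24 on the other 6, and its NP difference did not pass the thresholds. Over the cartilage list the split was uneven, with 8 of 13 tested genes higher and 5 lower in NP cKO, 1 past the thresholds (Acan), a median difference of 0.036, and 7 of 15 genes over background on 0 NP cKO arrays. The muscle myosin gene Myh4 read 10.74 and 9.51 against 4.36 to 5.41. Of the 20 tested muscle genes, 17 were higher and 3 lower in NP cKO. Past the thresholds were 3 higher and 1 lower (Cacna1s), beside 2.39% of all genes. Ckm, Mb, Mylpf, Tnni2 and Cacna1s were over background on 0 NP cKO arrays. Of the 9 tested NP and notochord genes, 3 were higher and 6 lower, and 5 of 12 were over background on 0 NP cKO arrays. The part of other tissue in the levels on NP cKO arrays 1 and 3 was not tested.

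**Figure D3:**
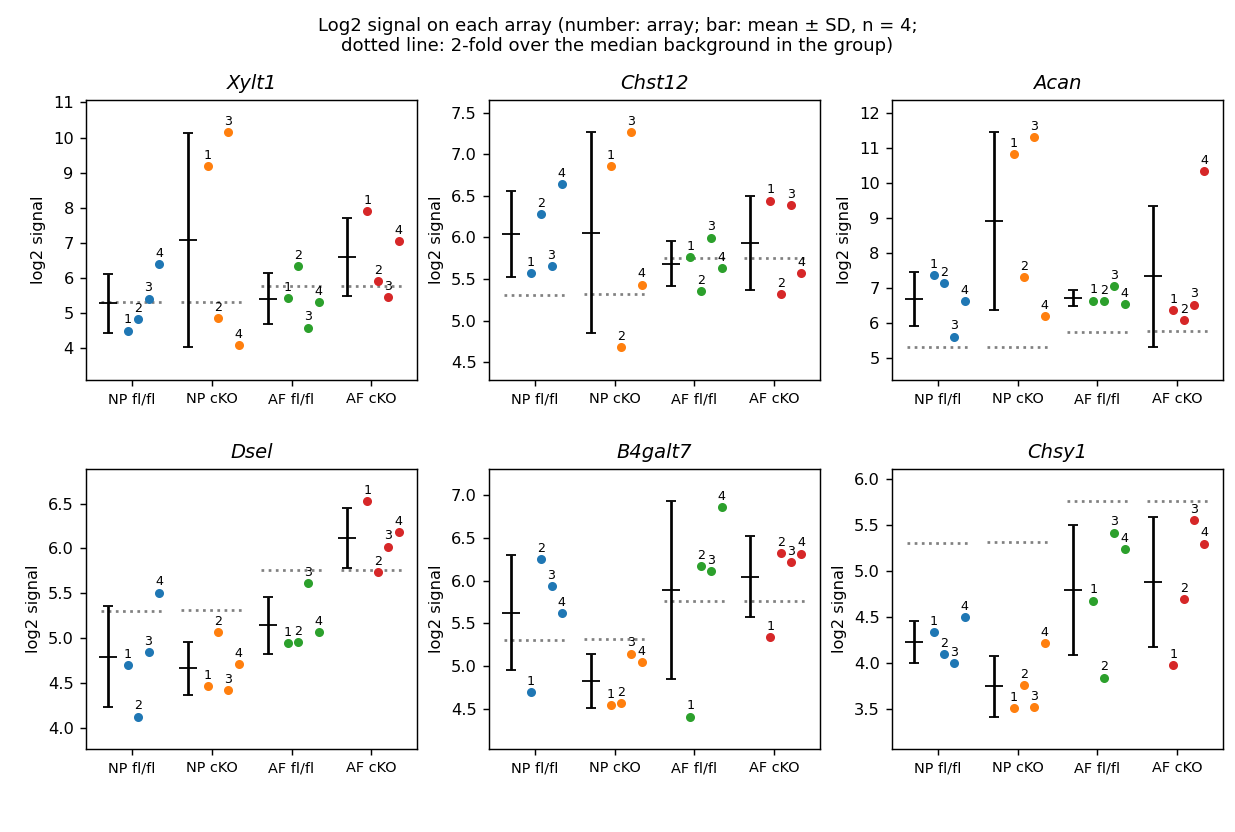
Log2 signal of Xylt1, Chst12, Acan, Dsel, B4galt7 and Chsy1 on each of the 16 arrays; numbers are array numbers, bars the mean ± SD of 4 arrays and dotted lines 2-fold over background. Xylt1, Chst12 and Acan were highest on NP cKO arrays 1 and 3, whereas Dsel was higher on all 4 AF cKO arrays than on any AF fl/fl array.

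B4galt7, the galactosyltransferase that adds the first galactose to the xylose, read 4.69, 6.25, 5.94 and 5.62 on NP fl/fl arrays and 4.54, 4.56, 5.14 and 5.04 on NP cKO arrays. Fl/fl array 1 fell within the cKO range and the other 3 lay above it. The difference was -0.81 ± 0.34 (limma unadjusted p = 0.0358, adjusted p = 0.934), with a fold change just under the threshold, and cKO was over background on 0 arrays. With the cKO values raised to the limit of 2-fold over background, the fl/fl mean was 1.24-fold higher. This is no strict bound, as fl/fl array 1 lay under the limit too. In the AF, B4galt7 read 4.41, 6.17, 6.11 and 6.86 in fl/fl and 5.34, 6.32, 6.22 and 6.32 in cKO, a difference of 0.16 ± 0.49. The interaction, the NP effect minus the AF effect, was -0.97 ± 0.63 (limma unadjusted p = 0.139) and missed the threshold. Of the other linkage genes, Fam20b, the kinase that phosphorylates the xylose, read 6.89 to 8.73 over all arrays, with differences of -0.38 ± 0.37 in NP and 0.20 ± 0.38 in AF. Xylt2, B3galt6 and B3gat3, which encode the second xylosyltransferase, the second galactosyltransferase and the glucuronyltransferase, had differences of -0.02 to 0.17 in NP and -0.01 to 0.36 in AF.

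None of the 5 tested genes of chondroitin chain initiation and polymerisation passed the thresholds between genotypes. In NP 4 were higher and 1 lower, and in AF all 5 were higher, by 0.03 to 0.31. Chsy1, a chondroitin synthase that alternates glucuronic acid and N-acetylgalactosamine, read 4.34, 4.10, 4.00 and 4.50 on NP fl/fl arrays and 3.51, 3.76, 3.52 and 4.22 on NP cKO arrays. Only cKO array 4 reached the fl/fl range. The difference was -0.48 ± 0.26 (limma unadjusted p = 0.0851), over background on 0 arrays of either group. In AF, Chsy1 read 4.68, 3.85, 5.42 and 5.24 in fl/fl and 3.98, 4.70, 5.56 and 5.30 in cKO, with overlapping groups and a difference of 0.09 ± 0.45. Csgalnact1, which adds the first N-acetylgalactosamine, had the largest positive NP difference of this role at 0.59 ± 0.31 (unadjusted p = 0.0851), with 5.03, 5.02, 4.18 and 4.32 in fl/fl and 4.66, 5.72, 5.45 and 5.07 in cKO. Csgalnact2, which shares this activity, Chsy3, also a synthase, and Chpf, the polymerising factor, had differences of 0.11 to 0.42 in NP and 0.03 to 0.13 in AF.

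Among the enzymes that sulfate and epimerise chondroitin and dermatan sulfate, 9 of 10 were tested and Dsel set the AF groups apart. Dsel encodes a relative of dermatan sulfate epimerase, which turns glucuronic into iduronic acid. It read 4.94, 4.95, 5.61 and 5.07 on AF fl/fl arrays and 6.52, 5.73, 6.02 and 6.18 on AF cKO arrays. Every cKO array was above every fl/fl array, by a narrow margin between cKO array 2 and fl/fl array 3. The difference was 0.97 ± 0.33 (limma unadjusted p = 0.0115, adjusted p = 0.984), with fl/fl over background on 0 of 4 arrays and cKO on 3. With the fl/fl values raised to the limit of 2-fold over background, the cKO mean was 1.27-fold higher. This is no strict bound, as cKO array 2 lay under the limit too. With any 1 array left out the difference stayed past the thresholds (0.83 to 1.13), and without cKO arrays 1 and 4 it was 0.73 at a limma unadjusted p of 0.0994. In the NP, Dsel read 4.70, 4.12, 4.84 and 5.51 in fl/fl and 4.46, 5.06, 4.42 and 4.71 in cKO, with groups that overlapped and a difference of -0.13 ± 0.31. The genotype effect of Dsel in NP was lower than in AF by the interaction term (-1.10 ± 0.44, limma unadjusted p = 0.0221, adjusted p = 0.988).

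Dsel was the 1 gene of the 31 past the thresholds for the interaction, where 4.10% of all genes passed them and 0% passed adjustment (limma, 0 of 16665; 687 genes at an unadjusted p under 0.05). Over the 31 genes, 11 interaction estimates were positive and 20 negative, with a median of -0.08 against -0.03 for all genes. The Dsel interaction was -0.86 without NP fl/fl array 4, -0.88 without NP cKO arrays 1 and 3 and -0.86 without AF cKO arrays 1 and 4, and missed the threshold in each (limma unadjusted p = 0.0594, 0.106 and 0.0968).

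None of the sulfotransferases passed the thresholds between genotypes. Chst11, a chondroitin 4-O-sulfotransferase needed in growth plate cartilage, read 4.61, 4.74, 5.26 and 4.36 on NP fl/fl arrays and 5.03, 4.80, 5.53 and 5.02 on NP cKO arrays. The groups overlapped, with a difference of 0.35 ± 0.28 (limma unadjusted p = 0.229). In AF, Chst11 read 5.76, 5.65, 5.71 and 5.95 in fl/fl and 4.96, 6.52, 5.89 and 6.26 in cKO, a difference of 0.14 ± 0.38, with cKO array 1 below and arrays 2 and 4 above every fl/fl array. Chst12, also a 4-O-sulfotransferase, read 5.57, 6.28, 5.66 and 6.64 on NP fl/fl arrays and 6.85, 4.68, 7.26 and 5.43 on NP cKO arrays. The cKO arrays thus fell on both sides of the fl/fl range, and the difference of 0.02 ± 0.51 became -0.98 without cKO arrays 1 and 3 (unadjusted p = 0.0312). In AF, Chst12 read 5.76, 5.35, 5.998 and 5.63 in fl/fl and 6.44, 5.32, 6.39 and 5.57 in cKO, a difference of 0.25 ± 0.36.

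Chst3, the chondroitin 6-O-sulfotransferase, read 4.70, 4.50, 4.50 and 3.84 on NP fl/fl arrays and 4.61, 4.63, 5.09 and 4.998 on NP cKO arrays. The difference was 0.45 ± 0.27 (limma unadjusted p = 0.121), with overlap and no array over background. In AF it read 4.81, 3.67, 4.47 and 4.33 in fl/fl and 5.21, 4.26, 4.42 and 4.16 in cKO, a difference of 0.19 ± 0.37. Chst14, the dermatan 4-O-sulfotransferase, read 3.99, 4.00, 4.05 and 3.81 on NP fl/fl and 3.97, 4.12, 4.40 and 3.53 on NP cKO arrays. All 8 read less than 2-fold over background, with a difference of 0.04 ± 0.25. In AF, Chst14 read 4.70, 4.54, 6.43 and 4.46 in fl/fl and 5.34, 4.94, 4.80 and 4.40 in cKO, where fl/fl array 3 alone was over background, and the difference was -0.17 ± 0.45.

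Ust, the uronyl 2-O-sulfotransferase, read 4.17, 5.12, 5.98 and 4.59 on NP fl/fl arrays and 5.25, 4.97, 4.93 and 4.99 on NP cKO arrays. The cKO values were close together and inside the fl/fl range, with a difference of 0.07 ± 0.35. In AF, Ust read 6.33, 5.65, 5.14 and 6.62 in fl/fl and 6.02, 5.55, 6.94 and 5.92 in cKO, a difference of 0.18 ± 0.42. Chst7, Chst13 and Chst15, which encode further chondroitin sulfotransferases, had differences of -0.17 to 0.02 in NP and -0.07 to 0.14 in AF. Dse, the dermatan sulfate epimerase, did not pass the filter and was over background on 0 arrays, with differences of -0.03 ± 0.26 in NP and 0.29 ± 0.42 in AF when no filter was used.

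Few of the heparan sulfate enzymes could be tested. Of 5 genes of chain initiation and polymerisation 3 were tested and of 6 of sulfation and epimerisation 1 was, and 0 passed the thresholds between genotypes. Ext1, which forms the polymerase complex with Ext2, read 4.29, 3.94, 4.07 and 5.95 on NP fl/fl arrays and 4.49, 4.87, 4.05 and 5.002 on NP cKO arrays. Fl/fl array 4 stood above all others, and the difference was 0.04 ± 0.42. In AF, Ext1 read 4.30, 5.76, 5.72 and 4.83 in fl/fl and 5.93, 4.79, 5.98 and 4.74 in cKO, a difference of 0.21 ± 0.45. Ext2 differed by 0.16 ± 0.30 in NP and 0.24 ± 0.33 in AF, and Extl2, a glycosyltransferase that acts on the linkage region, by -0.14 ± 0.27 and 0.11 ± 0.59. Ndst2, an N-deacetylase and N-sulfotransferase, differed by 0.06 ± 0.29 and 0.18 ± 0.42. Without the filter, Hs6st1, a 6-O-sulfotransferase, read 4.32, 4.46, 5.26 and 5.02 on AF fl/fl arrays and 3.72, 3.98, 4.38 and 3.48 on AF cKO arrays, all below the limit of 2-fold over background. Its AF difference was -0.87 ± 0.34 (limma unadjusted p = 0.0243), which passed the thresholds, and the groups overlapped at cKO array 3. The Hs6st1 interaction also passed them at 1.07 ± 0.43 (limma unadjusted p = 0.0224). Hs6st1 was chosen after its values were seen. Among the 16665 genes that passed the filter, 3.54% were past the thresholds in AF and 4.10% for the interaction. Extl1, Extl3, Hs2st1 and Hs6st2, likewise without the filter, had differences of -0.22 to 0.46 in NP and -0.11 to 0.56 in AF.

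All 3 hyaluronan synthases had negative differences in NP (-0.33 to -0.18) and positive differences in AF (0.29 to 0.43). Of these genes, 0 passed the thresholds in either tissue or for the interaction. Has1 and Has2 were over background on 0 arrays and Has3 on 1. The differences and interaction estimates of these genes thus rest almost wholly on values under the limit, and opposite directions in the tissues were not established. Has2, the main synthase of skeletal tissues, read 5.29, 4.91, 4.57 and 4.55 on NP fl/fl arrays and 4.15, 4.57, 5.26 and 4.62 on NP cKO arrays. The groups overlapped, with a difference of -0.18 ± 0.30. In AF, Has2 read 5.23, 3.95, 5.10 and 5.76 in fl/fl and 5.03, 5.32, 5.27 and 5.56 in cKO, a difference of 0.29 ± 0.40. The interaction estimates of Has1, Has2 and Has3 were -0.75 ± 0.51, -0.47 ± 0.50 and -0.55 ± 0.46 (limma unadjusted p = 0.155, 0.362 and 0.25).

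Of the 5 genes of sulfate and sugar supply, 4 were tested and 0 passed the thresholds between genotypes. Papss2, a PAPS synthase that loss of function links to skeletal dysplasia in mice, read 3.67, 4.04, 4.36 and 4.53 on NP fl/fl arrays and 4.05, 3.17, 5.07 and 4.02 on NP cKO arrays. In AF it read 4.53, 4.09, 5.91 and 7.08 in fl/fl and 4.88, 5.06, 5.11 and 5.44 in cKO. Fl/fl arrays 3 and 4 were above all AF cKO arrays and fl/fl arrays 1 and 2 below them, and the differences were -0.07 ± 0.38 in NP and -0.28 ± 0.56 in AF. Papss1, the other synthase, read 6.25 on NP cKO array 3 and 3.90 to 4.18 on the other NP cKO arrays, with a difference of -0.01 ± 0.50 in NP and -0.59 ± 0.44 in AF. Slc26a2, the sulfate transporter, read 3.66, 4.95, 4.35 and 3.93 on NP fl/fl arrays and 4.21, 4.12, 4.61 and 4.85 on NP cKO arrays, a difference of 0.22 ± 0.32. In AF, Slc26a2 read 4.44, 3.94, 4.48 and 4.08 in fl/fl and 4.31, 4.17, 4.93 and 4.66 in cKO, a difference of 0.28 ± 0.32, and it was over background on 0 of 16 arrays.

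Ugdh makes UDP-glucuronic acid from UDP-glucose. It read 4.60, 4.97, 5.20 and 7.25 on NP fl/fl arrays and 5.61, 4.17, 5.81 and 3.96 on NP cKO arrays. Fl/fl array 4 was the highest, cKO arrays 1 and 3 came next and cKO arrays 2 and 4 were the lowest. The difference was -0.62 ± 0.58 (limma unadjusted p = 0.31), -0.04 without fl/fl array 4 and -1.44 without cKO arrays 1 and 3 (unadjusted p = 0.0379). In AF, Ugdh read 4.98, 5.11, 4.67 and 6.48 in fl/fl and 4.95, 4.77, 4.21 and 5.02 in cKO, a difference of -0.57 ± 0.42, with fl/fl array 4 again the highest. Slc35d1, the UDP-sugar transporter of the endoplasmic reticulum, did not pass the filter and differed by -0.04 ± 0.24 in NP and -0.44 ± 0.32 in AF without it.

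Related lists were compared in the same fits. Between genotypes, 0 of 11 other heparan sulfate enzymes, 0 of 5 keratan sulfate enzymes and 0 of 10 glycosaminoglycan degradation enzymes passed the thresholds in NP, in AF or for the interaction. Of 13 other genes of sugar nucleotide and sulfate supply, 0 passed in NP and 1 in AF, beside 3.54% of all genes, and 2 passed for the interaction, beside 4.10%. The AF gene was Ugp2, the enzyme that makes UDP-glucose. Ugp2 read 5.44, 5.18, 4.82 and 6.07 on AF fl/fl arrays and 4.55, 3.95, 4.05 and 4.58 on AF cKO arrays, groups that did not overlap (2.61% of all genes in AF). The difference was -1.10 ± 0.36 (limma unadjusted p = 0.00939, adjusted p = 0.984), but fl/fl was over background on 1 array and cKO on 0, so that no lower bound on the fold could be given. In NP, Ugp2 read 4.26, 5.39, 5.12 and 5.79 in fl/fl and 5.41, 5.04, 6.03 and 4.73 in cKO, with overlap and a difference of 0.16 ± 0.37, and the interaction was 1.26 ± 0.52 (unadjusted p = 0.0264, adjusted p = 0.988). The interaction also passed the thresholds for Bpnt2, the Golgi phosphatase that clears the by-product of sulfation, at 1.09 ± 0.48 (limma unadjusted p = 0.0359, adjusted p = 0.988). Bpnt2 read 5.23, 4.71, 4.92 and 4.90 on NP fl/fl, 5.07, 5.48, 5.82 and 5.07 on NP cKO, 6.64, 5.95, 6.76 and 5.44 on AF fl/fl and 4.76, 5.88, 5.53 and 5.96 on AF cKO arrays. The genotypes overlapped in both tissues. The interaction of Ugp2 missed the thresholds when any of NP fl/fl array 1, NP cKO array 3, AF fl/fl array 4 and AF cKO array 2 was left out (0.96 to 1.15), and that of Bpnt2 when any of NP fl/fl arrays 2, 3 and 4, NP cKO arrays 2 and 3, AF fl/fl arrays 1 and 3 and AF cKO array 1 was (0.83 to 1.08). Without NP cKO arrays 1 and 3 together both missed them (0.84 and 1.01).

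Of 24 tested proteoglycan core and link proteins, 1 passed the thresholds in NP and 1 in AF, beside 2.39% and 3.54% of all genes, and 1 for the interaction, beside 4.10%. Acan, the aggrecan core that carries most chondroitin sulfate of the disc, was higher in NP cKO by 2.23 ± 0.96 (limma unadjusted p = 0.0394, adjusted p = 0.934), with 7.38, 7.13, 5.61 and 6.62 on fl/fl arrays and 10.82, 7.32, 11.31 and 6.21 on cKO arrays. As for Xylt1, the high values were those of cKO arrays 1 and 3, and without both the difference was 0.08. The Acan call was also lost when any of cKO arrays 1 and 3 and fl/fl arrays 2, 3 and 4 was left out (1.43 to 2.38). The Acan locus is also the site of the Cre allele that distinguishes the genotypes, and any part of this allele in the Acan signal was not tested. In AF, Acan read 6.64, 6.62, 7.05 and 6.54 in fl/fl and 6.36, 6.08, 6.52 and 10.35 in cKO. Only cKO array 4 lay above the fl/fl arrays, the other 3 lay below them, and the difference of 0.62 ± 0.76 was -0.39 without that array. Gpc3, a heparan sulfate proteoglycan anchored to the cell surface, was lower in AF cKO by -1.48 ± 0.32 (unadjusted p = 0.000557, adjusted p = 0.984), with 6.24, 5.81, 6.13 and 5.51 on fl/fl arrays and 4.56, 4.75, 4.28 and 4.18 on cKO arrays, groups that did not overlap. Fl/fl was over background on 3 arrays and cKO on 0. With the cKO values raised to the limit of 2-fold over background, the fl/fl mean of Gpc3 was 1.14-fold higher. This is no strict bound, as fl/fl array 4 lay under the limit too. In NP, Gpc3 read 4.91, 5.12, 4.12 and 4.69 in fl/fl and 4.53, 3.84, 5.17 and 4.58 in cKO, over background on 0 arrays, and the interaction was 1.30 ± 0.45 (limma unadjusted p = 0.00924, adjusted p = 0.988). It passed with any 1 array left out (1.09 to 1.53) and missed the thresholds without NP cKO arrays 1 and 3 (0.98, limma unadjusted p = 0.0634).

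The tissues were then compared within each genotype. NP arrays read lower than AF arrays for most genes, with a median log2 difference (NP minus AF) over all genes of -0.50 in fl/fl and -0.53 in cKO, and the background controls were lower as well. For the 31 glycosaminoglycan genes the median was -0.18 in fl/fl and -0.33 in cKO, with 23 and 22 genes lower in NP. These medians lay above the medians of all genes. When each array was centred on its background controls, the medians of the 31 genes were 0.28 and 0.10, with 10 and 15 genes lower in NP. With quantile normalization they were 0.32 and 0.12. A direction between the tissues therefore holds only on the deposited scale for the median and for several genes.

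On that scale, 4 of the 31 genes passed the thresholds in fl/fl mice, Chst11, Chst14, Ust and Papss2, all lower in NP, beside 26.8% of all genes. After adjustment by limma 1 remained, Chst11 (-1.02 ± 0.32, adjusted p = 0.0429), beside 14.0% of all genes. In fl/fl mice, Chst11 was over background on 0 NP arrays and on 1 AF array. Chst14 had a difference of -1.07 ± 0.38, Ust of -0.97 ± 0.40 and Papss2 of -1.25 ± 0.51 (limma adjusted p = 0.0616, 0.106 and 0.0997). Chst14 was -0.61 without AF fl/fl array 3 and Papss2 -0.69 without AF fl/fl array 4, and both then missed the thresholds. Papss2 also missed them without NP fl/fl array 1 or AF fl/fl array 3 (-1.09 and -1.08), and Ust without array 1 or 4 of either tissue (-0.97 becoming -0.85 to -0.70). With background centring, 0 of these 4 passed, Chst11 keeping a negative value of -0.57, and Xylt2 and Has3 passed as higher in NP instead (1.02 ± 0.30 and 0.96 ± 0.33, adjusted p = 0.0924 and 0.148).

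In cKO mice, 6 of the 31 passed on the deposited scale, B4galt7, Chsy1, Chst11, Chst14, Dsel and Ust, again all lower in NP, beside 30.0% of all genes. Single arrays decided some of these calls, that of Chst11 being lost when any of NP cKO arrays 1, 2 and 4 and AF cKO arrays 2 and 4 was left out, that of Chst14 for NP cKO arrays 1 and 4 and AF cKO arrays 1 and 2, and that of Ust for AF cKO array 3 (-0.85 to -0.61 over these). After adjustment 2 remained, Dsel (-1.45 ± 0.31, limma adjusted p = 0.00731) and Chsy1 (-1.13 ± 0.37, limma adjusted p = 0.0428), beside 18.2% of all genes. Chsy1 and Chst14 were over background on 0 cKO arrays of either tissue, so their calls rest on values under the limit. Dsel read 4.42 to 5.06 on NP cKO arrays and 5.73 to 6.52 on AF cKO arrays. With background centring Dsel still passed the thresholds at -1.02 ± 0.32 (limma unadjusted p = 0.00477, adjusted p = 0.0983), and with quantile normalization it missed them at -0.78. In fl/fl mice, the NP minus AF difference of Dsel was -0.35 ± 0.31 as deposited and 0.11 with background centring. The Chsy1 difference was -0.70 with background centring and did not pass. These comparisons share their arrays with the genotype comparisons and are no separate evidence for Dsel.

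**Figure D4:**
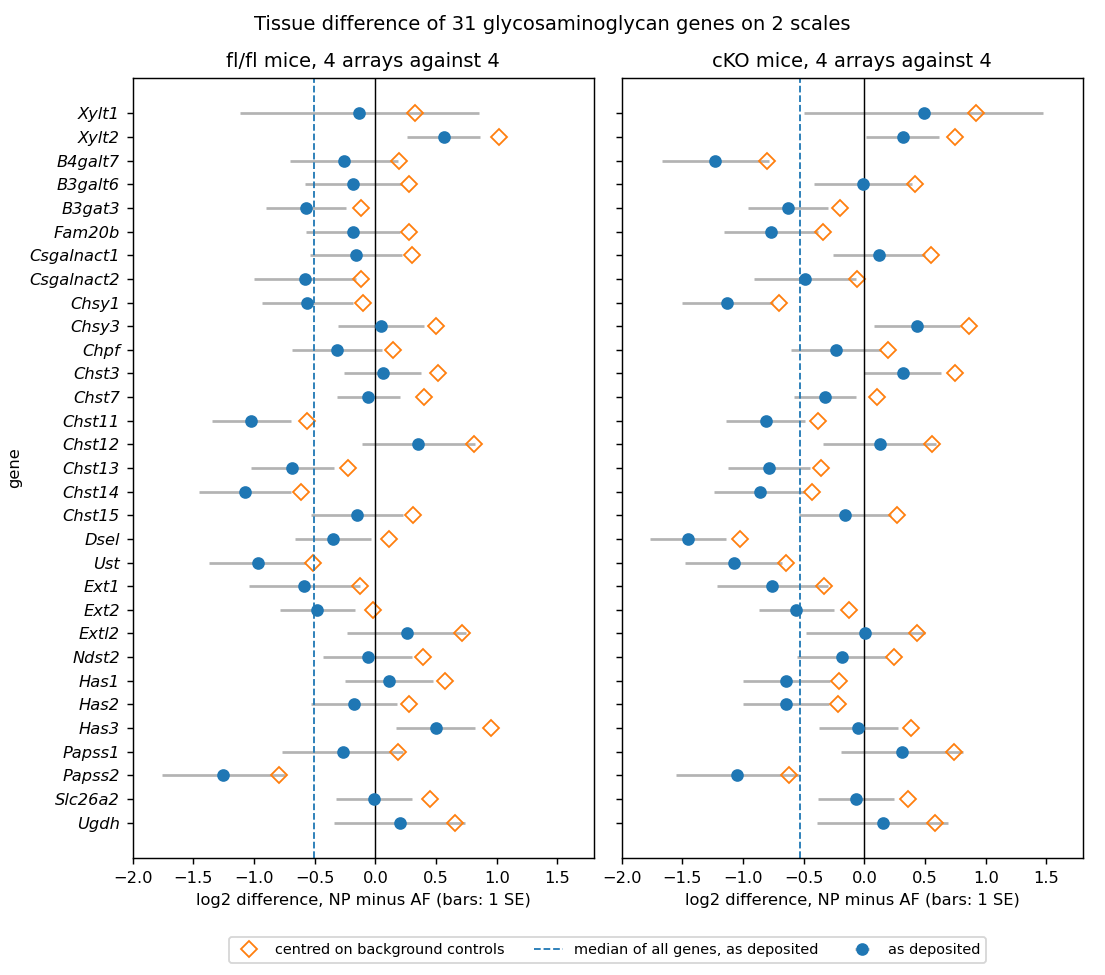
Log2 difference, NP minus AF, of the 31 tested genes in fl/fl (left) and cKO mice (right), as deposited (filled points, bars 1 SE, 4 arrays against 4) and after centring each array on its background controls (diamonds). The dashed line is the median of all genes as deposited (-0.50 and -0.53), and diamonds lie to the right of the points throughout.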

How the data were processed

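RNA with an integrity number above 4 was hybridised after labelling with the GeneChip WT Plus kit. The authors normalised the arrays by SST-RMA in Expression Console 1.4.1, and the deposited table holds log2 signals of 28846 probe sets on 16 arrays. The sources used here do not state whether both tissues were normalised together. Genes were kept where the signal exceeded the 40th percentile of the array on at least 4 of 16 arrays.

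Genotypes were compared within each tissue by limma 3.58.1 in R 4.3.3, and interaction and tissue contrasts came from 1 fit of 16 arrays, with Benjamini-Hochberg adjustment over 16665 genes. The number of arrays limits the precision. The procedure was tested on simulated data with independent noise for each gene and no array set apart. That test does not cover arrays that stand apart, as some did here. Deviations of same-numbered arrays correlated at -0.142 to 0.062, so numbers were not used as pairs. Alternatives covered the filter, normalization, array weights, eBayes, SAM, a joint fit, a replicate block and arrays left out one at a time; leaving out pairs of arrays, and any array for Acan, Gpc3, Ugp2 and Bpnt2, was chosen after seeing the data.

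The 41 genes and all lists were chosen with earlier results of these data known. Every array's value was given for those of the 31 past the thresholds in any comparison and for Xylt1, Chsy1, Chst11, Chst3, Ext1, Has2, Papss2, Slc26a2 and Ugdh (and Ndst1, not analysed here). Of each list, up to 4 genes with the lowest unadjusted p could be named. Chst12, Csgalnact1, Hs6st1, Sox9, Myh4 and the single arrays of Papss1 were chosen after their values were seen.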

Additional observations from a re-analysis of the deposited data

Results flagged for a closer look

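Within groups of 4 arrays, 1 array stood further from the rest than Dixon's critical value in 7 of 152 combinations of gene and group (4.61%), and chance flags about 1 in 20. Xylt2 read 5.63 on NP cKO array 4 against 4.96 to 5.06 on the others of its group. B4galt7 read 5.34 on AF cKO array 1 against 6.22 to 6.32. Chst14 read 6.43 on AF fl/fl array 3 against 4.46 to 4.70. Papss1 read 6.25 on NP cKO array 3 against 3.90 to 4.18. On NP cKO array 1, Ext2 read 4.94 against 3.94 to 4.04 and Dse 4.60 against 3.69 to 3.82. Hs2st1 read 4.18 on NP fl/fl array 4 against 3.78 to 3.84. Of these values, those of Xylt2, Chst14 and Papss1 were over background.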

How the results depend on the processing

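In NP, the count of 0 genes past the thresholds became 1 with background centring and with array weights (B4galt7), 2 without cKO arrays 1 and 3 together (Chst12 and Ugdh, lower), and 0 to 2 with 1 array left out. The NP difference of Xylt1 turned to -0.81 without cKO arrays 1 and 3, and that of Chst12 to -0.98 there, to -0.12 with quantile normalization, and ranged from -0.38 to 0.48 with 1 array left out, negative for the omission of arrays 1 or 3 of either genotype. In AF, the count of 2 became 1 with the stricter filter, quantile normalization, either centring, array weights and 1 joint fit, 1 to 2 with 1 array left out, and 0 without cKO arrays 1 and 4; without the filter it was again 2, but Hs6st1 (lower) took the place of Xylt1. The Acan difference in AF was -0.39 to 1.03 with 1 array left out and -0.41 without cKO arrays 1 and 4. The interaction count of 1 became 2 without the filter (with Hs6st1), 2 without NP cKO arrays 1 and 3, 0 without AF cKO arrays 1 and 4, and 0 to 2 with 1 array left out, 0 being without NP fl/fl array 4 and 2 without AF fl/fl array 4. Between tissues in fl/fl, the count of 4 lower genes became 3 higher with quantile normalization and 2 higher with either centring, and 2 to 5 with 1 array left out (2 without AF fl/fl array 3). In cKO, the count of 6 lower became 3 higher with quantile normalization, 3 higher and 1 lower (4) with median centring, 1 higher and 1 lower (2) with background centring, and 5 to 8 with 1 array left out. The medians became 0.32, 0.32 and 0.28 in fl/fl and 0.12, 0.19 and 0.10 in cKO under quantile normalization, median centring and background centring, and -0.49 in cKO with the stricter filter, which tested 19 genes. With the replicate block the counts were 0 in NP, 2 in AF, 1 for the interaction, 3 between tissues in fl/fl and 7 in cKO, where numbers do not pair the arrays. The causes were not tested. Most genes lay near background, which limits every difference given.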
